A study of Homo sapiens with 24 samples.

Results

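Expression of 10 amino acid transporter genes was followed in LNCaP cells, a human prostate cancer cell line that grows in response to androgen. The genes were taken by symbol from a table of 60649 features, and all 10 were found in it: SLC7A5, SLC3A2, SLC1A4, SLC1A5, SLC7A11, SLC38A1, SLC38A2, SLC38A4, SLC43A1 and SLC36A1. They were listed for their role in amino acid supply under androgen, with SLC38A4 already noted as almost silent without hormone, so that its hormone response is given here as a description. RNA-seq read counts per gene were available for 24 libraries, in 8 groups of 3. In study 1 the cells had been transfected with a construct that encodes peptide 3 of WDR77 (P3) or with the empty vector (EV), and in study 2 with siRNAs against WDR77 (siWDR77) or a non-targeting siRNA (siCtrl). WDR77 is a WD-repeat partner of the arginine methyltransferase PRMT5 and a coregulator of the androgen receptor. All cells were then kept in androgen-deprived medium and received R1881, a synthetic androgen, at 5 nM or its ethanol vehicle for 48 h. This gives P3_R1881 and P3_vehicle, EV_R1881 and EV_vehicle, siWDR77_R1881 and siWDR77_vehicle, and siCtrl_R1881 and siCtrl_vehicle. The labels describe biological triplicates of 1 cell line and do not say more about how the cultures were separated. The p-values therefore measure the spread between the 3 libraries of a group, estimated jointly over all groups fitted together. A library that stands apart can thus widen the spread used for other groups. Libraries are named by group and by the S number of their titles.

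Cells cannot take up most amino acids by diffusion and rely on carriers of the solute carrier (SLC) families. SLC7A5 (LAT1) and SLC7A11 (xCT) are light chains that reach the plasma membrane joined to the heavy chain SLC3A2 (4F2hc), LAT1 exchanging large neutral amino acids such as leucine and xCT exchanging cystine for glutamate. SLC43A1 (LAT3) carries leucine and related amino acids without a heavy chain and is best known from prostate and liver. SLC1A4 (ASCT1) and SLC1A5 (ASCT2) exchange small neutral amino acids, ASCT2 with glutamine as a major substrate, while SLC38A1, SLC38A2 and SLC38A4 (SNAT1, SNAT2 and SNAT4) take up small neutral amino acids with sodium. SLC36A1 (PAT1) moves small amino acids with protons and is found on lysosomes, where amino acids are sensed by mTORC1, the kinase complex that couples nutrients to growth.

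The starts of 4 of these genes are shown because the results below turn on them: SLC38A4, SLC43A1 and SLC38A2 had the largest rises with R1881 in empty vector cells, and SLC7A5 fell in every arm. Sequences cover 250 bases before and 50 after the gene start set by RefSeq (GRCh38.p14), 5′ to 3′ on the strand of the gene, with capitals for the motif found. Of the 10 genes, 9 were matched in the RefSeq promoter table by symbol. SLC7A11 was not matched.

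SLC38A4: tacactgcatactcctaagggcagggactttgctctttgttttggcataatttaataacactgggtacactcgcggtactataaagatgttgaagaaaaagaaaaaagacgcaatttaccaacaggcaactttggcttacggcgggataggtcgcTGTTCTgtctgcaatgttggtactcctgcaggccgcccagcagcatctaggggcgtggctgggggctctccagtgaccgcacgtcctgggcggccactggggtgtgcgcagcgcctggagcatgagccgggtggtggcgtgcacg
SLC43A1: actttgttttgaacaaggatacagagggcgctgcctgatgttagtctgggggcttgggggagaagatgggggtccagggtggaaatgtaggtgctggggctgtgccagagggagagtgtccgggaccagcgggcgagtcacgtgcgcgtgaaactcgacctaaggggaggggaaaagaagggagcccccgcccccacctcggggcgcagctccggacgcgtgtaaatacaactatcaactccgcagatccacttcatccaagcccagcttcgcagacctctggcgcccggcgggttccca
SLC38A2: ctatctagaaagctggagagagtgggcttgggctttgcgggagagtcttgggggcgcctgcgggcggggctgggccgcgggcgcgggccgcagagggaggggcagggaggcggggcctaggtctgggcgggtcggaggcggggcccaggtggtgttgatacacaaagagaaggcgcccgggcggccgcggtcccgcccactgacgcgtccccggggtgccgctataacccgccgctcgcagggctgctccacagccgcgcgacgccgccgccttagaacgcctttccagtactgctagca
SLC7A5: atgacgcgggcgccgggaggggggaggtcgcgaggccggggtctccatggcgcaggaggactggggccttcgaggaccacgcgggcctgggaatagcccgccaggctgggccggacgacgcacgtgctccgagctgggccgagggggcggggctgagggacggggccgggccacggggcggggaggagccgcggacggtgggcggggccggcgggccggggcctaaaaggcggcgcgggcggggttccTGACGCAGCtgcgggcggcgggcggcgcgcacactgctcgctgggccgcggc

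These windows lie at chr12:46825948-46826247, chr11:57515653-57515952, chr12:46372724-46373023 and chr16:87869458-87869757, all on the minus strand. The motifs searched on both strands were the androgen receptor core TGTTCT, the full androgen response element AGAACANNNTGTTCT that contains it, the amino acid response core TGATGNAA bound by ATF4 and its partners, and the antioxidant response core TGACNNNGC bound by NRF2. SLC38A4 was the 1 gene of 9 with TGTTCT, which began at position -95 from the start and which 14.8% of all 35116 promoters hold. The full element was in none of the 9 and in 0.00285% of all promoters. TGACNNNGC, present in 13.3% of promoters, was found at -2 in SLC7A5 and at -37 in SLC3A2. TGATGNAA, present in 3.62%, was found at -4 in SLC38A1 and, on the opposite strand, at position 38 after the start of SLC3A2. The RefSeq starts of SLC3A2, SLC38A1 and SLC38A4 lie inside the gene bodies that GENCODE gives, so other starts of these genes are not covered. A match is a description of letters in this window and not of binding.

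Depth was 16665915 to 24260446 counts per library, and all 10 genes passed the filter on low counts in both studies. Mitochondrially encoded genes took up to 8.40% of counts, in siCtrl_vehicle S35, which stands apart from its 2 replicates. KLK3, the androgen-induced gene for prostate-specific antigen, was at 52.6 CPM in that library against 203 and 204 CPM in siCtrl_vehicle S7 and S21. Results that S35 decides are therefore given with and without it, where siCtrl_vehicle is among the groups compared. WDR77 itself had 15.6, 13.4 and 13.8 CPM in siWDR77_R1881 against 63.8, 67.3 and 66.1 CPM in siCtrl_R1881 and 11.3, 14.9 and 13.3 CPM in siWDR77_vehicle against 41.7, 46.7 and 46.6 CPM in siCtrl_vehicle, so every knockdown library lay below every control library. In P3_R1881 it had 89.3, 101 and 94.7 CPM, against 59.4, 58.8 and 64.0 CPM in EV_R1881, and in P3_vehicle 56.2, 61.6 and 52.3 CPM, against 55.1, 58.8 and 63.6 CPM in EV_vehicle. FKBP5, a standard androgen-induced gene, had 1006 to 1071 CPM in P3_R1881, 2429 to 2520 CPM in EV_R1881, 86.4 to 94.0 CPM in P3_vehicle and 70.1 to 76.7 CPM in EV_vehicle. All 9 luminal prostate markers were above 1 CPM in every group, and their summed level was 5262 to 23220 CPM. Of 4 immune markers none reached 1 CPM in any group, with CD3E at 0 counts throughout and a summed level of at most 0.293 CPM. The 6 fibroblast markers summed to 7.36 to 21.4 CPM with R1881 and 21.2 to 32.2 CPM without it, mostly from COL1A1 and COL3A1, with COL1A2 at 0 counts. The 4 basal markers summed to 2.75 to 10 CPM with R1881 and 0.226 to 2.93 CPM without it, mostly from KRT14, with KRT5 at 0 in 7 of 8 groups. The 4 neuroendocrine markers summed to 2.42 to 7.69 CPM with R1881 and 1.72 to 3.76 CPM without it, almost all from SYP, with INSM1 at 0. The part of these lists in the results was not tested.

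Per length of exon, the 10 genes covered a wide range of levels. The length is that of all exons of a gene merged, 5178 bases for SLC3A2 and 6602 for SLC38A2. Their longest transcripts have 2222 and 4888 bases, so the order given here holds for merged exons and depends on the length used. In EV_R1881 the highest was SLC38A2 at 108 ± 6.65 CPM per kb (mean ± SD, n = 3), followed by SLC1A5 at 46.4 ± 2.17 and SLC3A2 at 45.5 ± 0.892 CPM per kb, which did not differ beyond their spread. SLC43A1 came next at 33.1 ± 0.940 CPM per kb, then SLC38A1 at 18.3 ± 0.953 and SLC7A11 at 8.03 ± 0.832 CPM per kb. SLC36A1 had 3.48 ± 0.111 CPM per kb. The low end held SLC38A4 at 2.12 ± 0.560 and SLC1A4 at 1.99 ± 0.103 CPM per kb, again within their spread, and SLC7A5 at 0.669 ± 0.0620 CPM per kb. In EV_vehicle the order was SLC38A2 (45.5 ± 1.45 CPM per kb), SLC3A2 (41.8 ± 0.463), SLC1A5 (31.1 ± 2.17) and SLC38A1 (16.2 ± 0.451). SLC7A11 (9.94 ± 0.974 CPM per kb) and SLC43A1 (8.20 ± 0.827) followed without differing beyond their spread. Then came SLC36A1 (2.92 ± 0.116 CPM per kb), SLC7A5 (2.41 ± 0.256) and SLC1A4 (2.14 ± 0.0418), the last pair again within their spread. SLC38A4 was last at 0.00868 ± 0.00752 CPM per kb. SLC43A1 thus stood above SLC38A1 with hormone and below it without, and SLC7A5 stood last with hormone. In bulk RNA, fewer cells that express a gene and less RNA per cell cannot be told apart.

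**Figure D1:**
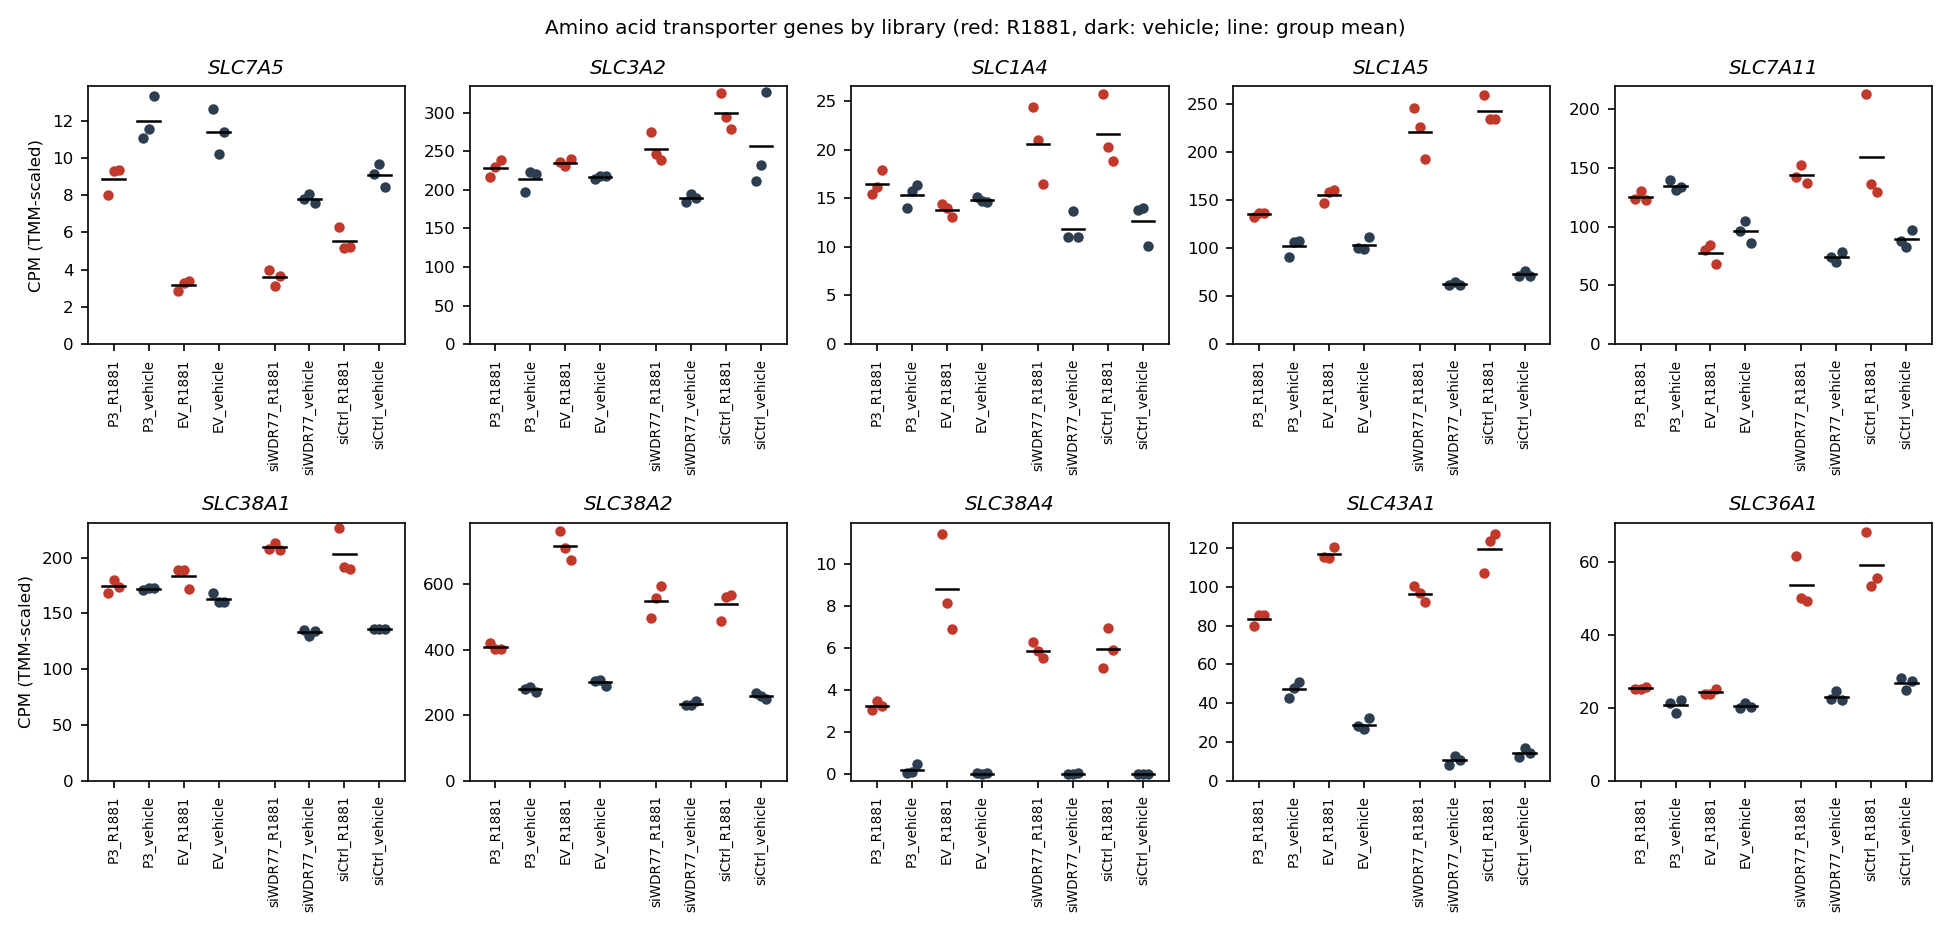
Level of each of the 10 genes in all 24 libraries, in CPM over TMM-scaled library sizes (1 panel per gene, each with its own axis). Points are libraries, red for R1881 and dark for vehicle, and lines are group means (n = 3). In the SLC38A4 panel all 12 vehicle libraries lie at or under 0.481 CPM and all 12 R1881 libraries at or above 3.04 CPM.

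The first comparison asks what androgen did to these genes in each arm. With R1881, 5 of the 10 genes rose in all 4 arms (SLC1A5, SLC38A2, SLC38A4, SLC43A1 and SLC36A1), and SLC7A5 fell in all 4. Of the 9 without SLC38A4, 4 rose in all 4 arms. The share of all genes called in 1 direction in all 4 arms was not counted, so these counts are a description. The calls of SLC36A1 in P3 and EV cells and of SLC7A5 in P3 cells depend on the scaling, the filter or single libraries, as given with each gene. A gene is called here at a Benjamini-Hochberg adjusted p under 0.05 in edgeR's quasi-likelihood F test, fitted over all genes of a study. In P3 cells 5 of the 10 were called higher and 1 lower, where 13% of 17772 genes were called higher and 7.96% lower (21% in all). In EV cells 6 were called higher and 2 lower, against 24.9% and 26.4% of all genes (51.4% in all). In siWDR77 cells 9 were called higher and 1 lower, against 27.7% and 25.5% of 17893 genes (53.2% in all). In siCtrl cells 8 were called higher and 1 lower, against 25.7% and 25.4% (51.1% in all). The median log2 fold change of the 10 genes was 0.20 in P3, 0.21 in EV, 1.09 in siWDR77 and 0.95 in siCtrl cells, beside -0.02, -0.04, -0.02 and -0.04 for all genes tested. SLC38A4 was known to be near silent without hormone when the genes were chosen, so its calls are part of the choice. Of the other 9 genes, 4 were called higher and 1 lower in P3, 5 and 2 in EV, 8 and 1 in siWDR77 and 7 and 1 in siCtrl cells, with medians of 0.10, 0.17, 0.96 and 0.84. These 9 were also chosen with earlier results of these data known, so their counts and medians are a description. Without scaling beyond library totals the median of all genes moved to -0.11 in P3, -0.21 in EV, -0.31 in siWDR77 and -0.31 in siCtrl cells, and higher calls made up 35.5%, 30.8%, 25.5% and 25.5% of all calls, against 62.1%, 48.5%, 52.0% and 50.3% with TMM scaling. Changes are given relative to the TMM scale. Without that scaling SLC1A4 was called lower in EV cells (adjusted p = 0.0288) and SLC7A11 lower in P3 cells (adjusted p = 0.0298).

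SLC38A4, the SNAT4 gene, had the widest range. Its position is chromosome 12, 46764761 to 46832408, minus strand (all positions are from GENCODE 29 on GRCh38). Its level was 11.4, 8.14 and 6.88 CPM in EV_R1881, against 0.0547, 0 and 0.0533 CPM in EV_vehicle. In siCtrl_R1881 it was 5.03, 6.96 and 5.88 CPM, and no read was counted in the 3 siCtrl_vehicle libraries. The R1881 and vehicle libraries do not overlap in any arm. In counts, EV_R1881 held 455 and EV_vehicle 2, a depth-scaled ratio of 272 with a 95% exact counting interval of 75.0 to 2256. The siWDR77_R1881 libraries held 349 counts and siWDR77_vehicle 1, a ratio of 396 (70.7 to 15700). With 316 counts in siCtrl_R1881 and 0 in siCtrl_vehicle, the level was 134-fold higher when set against a floor of 3 counts over the group in place of 0. The exact interval used for the other arms has a lower limit of 108 there. In P3 cells the ratio was smaller, with 183 counts in P3_R1881 and 14 in P3_vehicle (15.5, interval 9.02 to 28.95). Of these 14 counts 11 came from P3_vehicle S33, at 0.481 CPM, beside 0.0418 and 0.102 CPM in S5 and S19. Without S33 the ratio in P3 cells was 47.5 (183 counts against 3, interval 16 to 232), an alternative chosen after seeing the data. Without molecular identifiers reads are not independent molecules, and both the intervals and the floor describe counting error alone.

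SLC43A1, the LAT3 gene (chromosome 11, 57484534 to 57515786, minus strand), rose in every arm. It had 115, 115 and 121 CPM in EV_R1881, against 28.3, 26.4 and 32.2 CPM in EV_vehicle. The siCtrl_R1881 libraries had 107, 124 and 127 CPM, and the siCtrl_vehicle libraries 12.01, 16.9 and 14.1 CPM. In both arms every R1881 library lay above every vehicle library. The log2 fold change was 0.83 ± 0.0683 (SE; adjusted p = 5.47e-13) in P3, 2.02 ± 0.0715 (8.78e-26) in EV, 3.18 ± 0.145 (8.90e-10) in siWDR77 and 3.07 ± 0.142 (1.11e-09) in siCtrl cells. Mean levels with hormone were 120 ± 10.8 CPM in siCtrl_R1881 and 117 ± 3.32 CPM in EV_R1881, and without it 14.3 ± 2.45 CPM in siCtrl_vehicle and 28.96 ± 2.92 CPM in EV_vehicle (SD, n = 3 each).

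SLC38A2, the SNAT2 gene, was the most abundant of the 10 per length of merged exons in EV cells and rose in all 4 arms. EV_R1881 had 762, 710 and 675 CPM, against 304, 308 and 289 CPM in EV_vehicle. The siCtrl_R1881 libraries had 487, 562 and 567 CPM, and the siCtrl_vehicle libraries 268, 259 and 249 CPM. The groups do not overlap. Its log2 fold change was 0.55 ± 0.0498 (adjusted p = 7.06e-12) in P3, 1.25 ± 0.0501 (5.75e-24) in EV, 1.22 ± 0.0674 (7.27e-14) in siWDR77 and 1.06 ± 0.0672 (1.34e-12) in siCtrl cells. SLC38A1, the SNAT1 gene, moved far less in study 1. It had 189, 189 and 172 CPM in EV_R1881 and 168, 160 and 160 CPM in EV_vehicle, a log2 fold change of 0.17 ± 0.0518 (adjusted p = 0.00472) that is lost without scaling beyond library totals (0.004, adjusted p = 0.952). Its change was 0.02 ± 0.0516 (adjusted p = 0.88, 95% interval -0.09 to 0.12) in P3 cells, and it rose by 0.66 ± 0.0613 (1.66e-09) in siWDR77 and 0.57 ± 0.0613 (1.90e-08) in siCtrl cells.

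SLC1A5, the glutamine exchanger ASCT2 (chromosome 19, 46774883 to 46788594, minus strand), had 146, 158 and 160 CPM in EV_R1881 and 100, 98.5 and 112 CPM in EV_vehicle. In siCtrl_R1881 it had 259, 234 and 235 CPM, against 71.2, 76.1 and 70.7 CPM in siCtrl_vehicle. Hormone thus separated the groups in both control arms, by a log2 fold change of 0.58 ± 0.0609 (adjusted p = 9.86e-11) in EV and 1.74 ± 0.0731 (5.41e-16) in siCtrl cells. It rose by 0.41 ± 0.0608 (1.08e-06) in P3 and by 1.83 ± 0.0735 (2.04e-16) in siWDR77 cells. Its relative SLC1A4, the ASCT1 gene, was at 15.4 to 17.9 CPM in P3_R1881 and 14.02 to 16.4 CPM in P3_vehicle, and at 13.04 to 14.5 CPM in EV_R1881 and 14.6 to 15.1 CPM in EV_vehicle. The log2 changes there were 0.10 (adjusted p = 0.569) and -0.10 (adjusted p = 0.458). SLC1A4 rose in study 2, to 16.5 to 24.4 CPM in siWDR77_R1881 against 10.98 to 13.7 CPM in siWDR77_vehicle (log2 fold change 0.79 ± 0.162, adjusted p = 4.84e-04), and to 18.9 to 25.8 CPM in siCtrl_R1881 against 10.1 to 14.01 CPM in siCtrl_vehicle (0.77 ± 0.162, adjusted p = 6.36e-04). SLC36A1, the lysosomal PAT1 gene, was called higher in all 4 arms, but its rise in study 1 was small (0.29 ± 0.0888 in P3, 0.25 ± 0.0904 in EV, adjusted p = 0.013 and 0.0195). Both of these calls are lost without scaling beyond library totals (adjusted p = 0.0894 in P3 and 0.469 in EV). The EV call is also lost with no filter on low counts and without EV_R1881 S30, and the P3 call without P3_vehicle S19, P3_R1881 S20 or P3_R1881 S34. In study 2 SLC36A1 was at 49.2 to 61.5 CPM in siWDR77_R1881 against 22.03 to 24.5 CPM in siWDR77_vehicle (1.22 ± 0.0998), and at 53.2 to 68.2 CPM in siCtrl_R1881 against 24.8 to 28.2 CPM in siCtrl_vehicle (1.14 ± 0.099).

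SLC7A5, the LAT1 light chain (chromosome 16, 87830023 to 87869488, minus strand), went the other way. EV_R1881 had 2.84, 3.28 and 3.41 CPM, against 12.6, 10.2 and 11.4 CPM in EV_vehicle. The siWDR77_R1881 libraries had 3.97, 3.13 and 3.67 CPM and the siWDR77_vehicle libraries 7.77, 8.06 and 7.60 CPM, and siCtrl_R1881 had 6.30, 5.15 and 5.19 CPM against 9.15, 9.69 and 8.42 CPM in siCtrl_vehicle. In each arm every R1881 library was below every vehicle library. The log2 fold change was -0.43 ± 0.130 (adjusted p = 0.0131) in P3, -1.84 ± 0.153 (1.20e-13) in EV, -1.12 ± 0.156 (1.38e-06) in siWDR77 and -0.71 ± 0.150 (2.99e-04) in siCtrl cells. The P3 call is lost without P3_vehicle S33 (-0.37, adjusted p = 0.0771) or P3_R1881 S6 (-0.36, adjusted p = 0.0845). The heavy chain SLC3A2 had 231 to 240 CPM in EV_R1881 and 214 to 218 CPM in EV_vehicle, groups that do not overlap but whose log2 difference of 0.12 ± 0.0524 did not pass (adjusted p = 0.0514). Of 13 alternatives 6 call it higher in EV cells, with log2 differences of 0.12 to 0.16, among them RLE size factors (adjusted p = 0.0107) and DESeq2 (adjusted p = 0.0096). In P3 cells the difference was 0.10 ± 0.0523 (adjusted p = 0.215). SLC3A2 was called higher in siWDR77 cells (0.42 ± 0.147, adjusted p = 0.0379). It had 238 to 275 CPM in siWDR77_R1881 and 184 to 194 CPM in siWDR77_vehicle, groups that do not overlap. The call is lost under 8 of 13 alternatives, and adjusted p over the 13 ranged from 6.31e-06 to 0.47. In the main fit its spread is estimated with the siCtrl libraries included, S35 among them. Leaving out S35 alone was not run for this comparison. In siCtrl cells the change was 0.22 ± 0.147 (adjusted p = 0.243) with S35, whose 328 CPM lay above the 211 and 232 CPM of the other siCtrl_vehicle libraries, and 0.43 (adjusted p = 6.27e-06) without it. In counts, and not per length, SLC7A5 amounted to 3.88 ± 0.178% of SLC3A2 in P3_R1881 and 5.61 ± 0.435% in P3_vehicle, to 1.35 ± 0.125% in EV_R1881 and 5.28 ± 0.613% in EV_vehicle, to 1.42 ± 0.137% in siWDR77_R1881 and 4.12 ± 0.113% in siWDR77_vehicle, and to 1.85 ± 0.0926% in siCtrl_R1881 and 3.69 ± 0.976% in siCtrl_vehicle. Of the 100-base windows of the longest SLC7A5 transcript, 1.83% are also found in another gene, among them the pseudogene SLC7A5P2, which had no counts in the 24 libraries, as had SLC7A5P1.

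SLC7A11, the cystine exchanger xCT (chromosome 4, 138164097 to 138242349, minus strand), was the member called in opposite directions. It had 79.8, 84.1 and 68.5 CPM in EV_R1881, against 96.6, 105 and 86.2 CPM in EV_vehicle. The siCtrl_R1881 libraries had 212, 136 and 129 CPM, and the siCtrl_vehicle libraries 87.8, 82.5 and 96.7 CPM. Every R1881 library was thus below every vehicle library in EV cells, and above every one in siCtrl cells, where S8 stood well above the other R1881 libraries. It fell in EV cells (log2 fold change -0.31 ± 0.0676, adjusted p = 2.18e-04), a call lost when all 24 libraries are fitted together (-0.32, adjusted p = 0.0703), and rose in siWDR77 (0.96 ± 0.175, adjusted p = 0.00139) and siCtrl cells (0.84 ± 0.174, adjusted p = 0.00314). In P3 cells the change was -0.10 ± 0.0649 (adjusted p = 0.298). SLC7A11-AS1 lies on the opposite strand and shares 865 exonic bases with SLC7A11, and without a stated strand setting their reads cannot be told apart there. It had 619 counts in the 24 libraries, beside 53718 for SLC7A11, and was called higher with R1881 in siWDR77 (1.35 ± 0.395, adjusted p = 0.00557) and siCtrl cells (1.55 ± 0.396, adjusted p = 0.00206) but not in P3 (-0.39, adjusted p = 0.514) or EV cells (0.56, adjusted p = 0.379). SLC1A5 shares 780 exonic bases with the antisense gene CTB-147N14.6, which had 105 counts beside 63559 for SLC1A5.

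**Figure D2:**
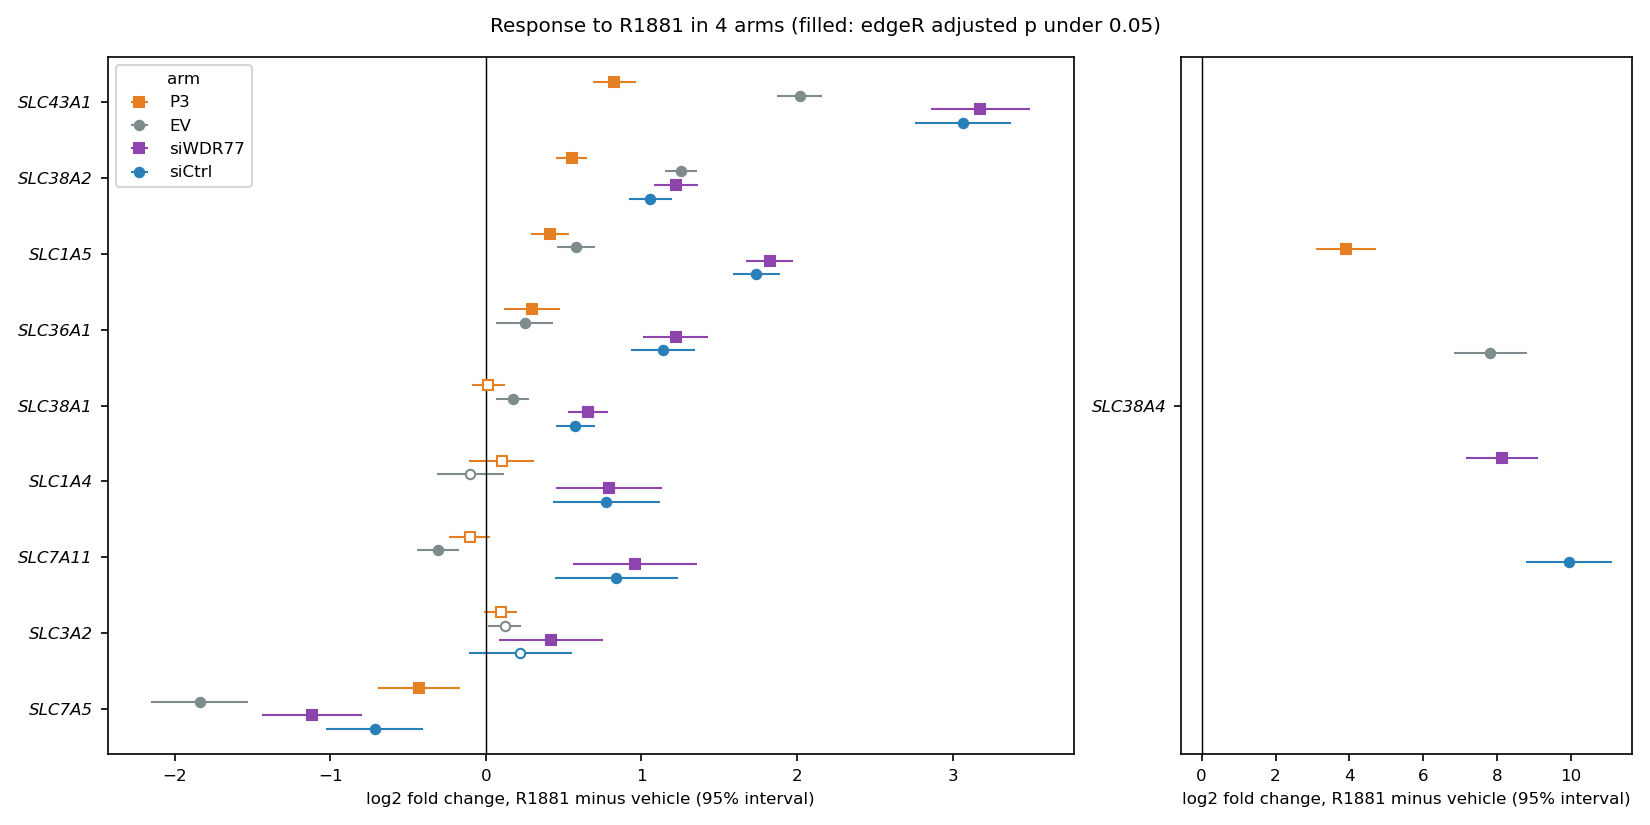
Log2 fold change of R1881 over vehicle in the 4 arms, for 9 genes (left) and for SLC38A4 on its own axis (right). The 95% intervals are computed from edgeR's log2 fold change and F value. For SLC38A4 the fitted values and intervals depend on the prior count because its vehicle counts are near 0. In siCtrl cells its drawn interval is 8.78 to 11.1, while the exact counting interval of the ratio has a lower limit of 108 and no upper limit. Filled symbols passed an adjusted p of 0.05. SLC7A5 lies below 0 in all 4 arms, from -1.84 in EV to -0.43 in P3 cells, and SLC7A11 lies below 0 in P3 and EV and above 0 in siWDR77 and siCtrl cells.

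The second comparison asks what peptide 3 did. With R1881 present, P3 cells had more SLC7A5 and SLC7A11 and less SLC38A4, SLC38A2, SLC43A1 and SLC1A5 than EV cells. SLC7A5 was at 7.98, 9.28 and 9.34 CPM in P3_R1881, against 2.84, 3.28 and 3.41 CPM in EV_R1881, a log2 difference of 1.48 ± 0.157 (adjusted p = 3.03e-10). SLC38A2 was at 419, 403 and 403 CPM in P3_R1881, against 762, 710 and 675 CPM in EV_R1881 (-0.81 ± 0.0496, adjusted p = 8.38e-17). Both pairs of groups are fully separated. SLC38A4 was lower in P3_R1881 (3.04, 3.48 and 3.25 CPM) than in EV_R1881 by 1.43 ± 0.251 on the log2 scale (adjusted p = 1.59e-05). SLC43A1 was lower in P3_R1881, at 79.8, 85.3 and 85.4 CPM (-0.49 ± 0.066, adjusted p = 9.91e-08). SLC7A11 was higher in P3_R1881, at 124, 131 and 122 CPM (0.69 ± 0.0673, adjusted p = 1.20e-10). SLC1A5 was slightly lower (132 to 137 CPM in P3_R1881 and 146 to 160 CPM in EV_R1881, -0.20 ± 0.0604, adjusted p = 0.00926), which is lost without scaling beyond library totals (-0.04, adjusted p = 0.645). The 2 members higher and 4 lower stand beside 18.1% and 18.9% of all genes (37% in all). Without scaling beyond library totals 77.0% of all calls there were higher, against 48.9% with TMM scaling, and the median of all genes was 0.18 against 0.03. The other 4 members did not pass, with log2 differences of 0.25 for SLC1A4 (95% interval 0.04 to 0.47, adjusted p = 0.0579), -0.07 for SLC38A1 (-0.18 to 0.03), -0.04 for SLC3A2 (-0.15 to 0.06) and 0.06 for SLC36A1 (-0.12 to 0.24). Without scaling beyond library totals SLC1A4 (0.41, adjusted p = 0.00167) and SLC36A1 (0.22, adjusted p = 0.0463) were called higher.

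Without hormone, 2 of the 10 genes were higher in P3 than in EV cells and none was lower, where 7.93% and 7.88% of all genes were called (15.8% in all), 50.2% of the calls being higher, or 84.5% without scaling beyond library totals. SLC43A1 had 42.8, 47.6 and 51.2 CPM in P3_vehicle, against 28.3, 26.4 and 32.2 CPM in EV_vehicle (log2 difference 0.71 ± 0.0731, adjusted p = 3.49e-09). SLC7A11 had 140, 131 and 133 CPM in P3_vehicle, against 96.6, 105 and 86.2 CPM in EV_vehicle (0.49 ± 0.0654, adjusted p = 1.98e-06). P3 thus sat above EV for SLC7A11 with and without hormone, and for SLC43A1 above EV without hormone and below it with hormone. SLC7A11-AS1 was also higher in P3_vehicle (2.79 CPM) than in EV_vehicle (0.463 CPM), by 2.53 ± 0.423 on the log2 scale (adjusted p = 9.49e-05), and in P3_R1881 (2.15 CPM) than in EV_R1881 (0.730 CPM), by 1.58 ± 0.426 (adjusted p = 0.00355). The other members did not pass without hormone. SLC38A4 was at 2.48 (adjusted p = 0.067), and was called without P3_vehicle S5 (2.99, adjusted p = 0.0284) or S19 (2.75, adjusted p = 0.0427). SLC38A1 was at 0.08 (adjusted p = 0.291), and was called without scaling beyond library totals (0.16, adjusted p = 0.024). The rest lay between -0.11 for SLC38A2 and 0.07 for SLC7A5.

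The change of the hormone response itself was tested as the P3 response minus the EV response. It was higher for 1 member and lower for 3, where 11.5% and 11.1% of all genes were called (22.6% in all), 50.9% of the calls being higher, or 66.7% without scaling beyond library totals. SLC7A5 fell less in P3 cells, with a difference of responses of 1.41 ± 0.203 (adjusted p = 6.17e-07). SLC43A1 (-1.19 ± 0.0985, adjusted p = 1.03e-12) and SLC38A2 (-0.70 ± 0.0702, adjusted p = 1.49e-10) rose less. For SLC38A4 the difference was -3.91 ± 0.949 (adjusted p = 0.00196), but it rests on P3_vehicle S33, without which it was -2.42 (adjusted p = 0.194). Its low level without hormone was part of the choice of genes, so this value is a description. The other members did not pass, with adjusted p of 0.12 for SLC7A11 (0.20, 95% interval 0.01 to 0.39), 0.126 for SLC38A1 (-0.16, -0.30 to -0.01) and 0.166 for SLC1A5 (-0.17, -0.34 to 0.01). Each of these 3 passes under some alternatives. SLC7A11 was called without scaling beyond library totals (0.28, adjusted p = 0.0286) and without EV_R1881 S16 (0.27, adjusted p = 0.0483). SLC38A1 was called by DESeq2 (-0.18, adjusted p = 0.0381) and without EV_vehicle S1, EV_R1881 S30 or P3_R1881 S20, and SLC1A5 without EV_vehicle S29, EV_R1881 S2 or P3_vehicle S5. SLC1A4 (0.20, -0.10 to 0.50), SLC36A1 (0.05, -0.21 to 0.30) and SLC3A2 (-0.03, -0.175 to 0.125) had intervals that include 0. The comparisons of study 1 share libraries, so their values are not independent of each other.

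The third comparison asks what knockdown of WDR77 did. Of the 10 genes, 1 passed with R1881 in the main fit and none without it. With R1881, SLC7A5 was lower in siWDR77_R1881 (3.97, 3.13 and 3.67 CPM) than in siCtrl_R1881 (6.30, 5.15 and 5.19 CPM), groups that do not overlap, by 0.62 ± 0.163 on the log2 scale (adjusted p = 0.02). That call is lost without siCtrl_R1881 S8 (-0.53, adjusted p = 0.11), siWDR77_R1881 S24 (-0.54, adjusted p = 0.0998) or siWDR77_R1881 S38 (-0.64, adjusted p = 0.0546). It is the 1 member called, and it was lower, where 3.90% of all genes were called higher and 3.31% lower (7.22% in all). The intervals for the others were narrow for SLC38A2 (0.03, 95% interval -0.11 to 0.16), SLC38A1 (0.05, -0.08 to 0.17) and SLC1A5 (-0.13, -0.28 to 0.01), and wider for SLC38A4 (-0.02, -0.46 to 0.41), SLC7A11 (-0.15, -0.54 to 0.24), SLC3A2 (-0.24, -0.57 to 0.09) and SLC1A4 (-0.07, -0.40 to 0.27). SLC43A1 (-0.31, -0.58 to -0.04, adjusted p = 0.173) and SLC36A1 (-0.13, -0.33 to 0.07) lay below 0 without passing. With only the 6 libraries compared, SLC43A1 (-0.32, adjusted p = 0.00208) and SLC3A2 (-0.26, adjusted p = 0.0126) were called lower. SLC43A1 was also called lower with no filter on low counts (-0.31, adjusted p = 0.00251). Without hormone no member was called, where 0.682% of all genes were called higher and 0.844% lower (1.53% in all). The estimate for SLC38A4 (1.78) rests on 1 count. Those of the other 9 members were all below 0, from -0.44 for SLC3A2 (adjusted p = 0.23) to -0.03. Their median was -0.216, beside -0.0037 for all genes tested. The share of all genes with an estimate below 0 was not counted. The SLC3A2 value was -0.22 (adjusted p = 0.0848) without siCtrl_vehicle S35. With all 24 libraries in 1 fit SLC3A2 was called lower without hormone (-0.44, adjusted p = 0.0428). SLC43A1 was called lower without hormone with no filter on low counts (-0.42, adjusted p = 0.00169) and by DESeq2 (-0.42, adjusted p = 0.046). It was also called without siWDR77_vehicle S23 (-0.60, adjusted p = 0.0393). The difference between the siWDR77 and the siCtrl response was called for none of the 10 members, and for 0% of all genes in either direction by edgeR (1484 genes at an unadjusted p under 0.05), while DESeq2 called 56 genes. For SLC7A5 it was -0.40 (95% interval -0.85 to 0.04), for SLC43A1 0.11 (-0.32 to 0.55), for SLC38A2 0.16 (-0.03 to 0.36) and for SLC1A5 0.09 (-0.12 to 0.30). P3 and siWDR77 were not compared directly, since they come from different studies.

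**Figure D3:**
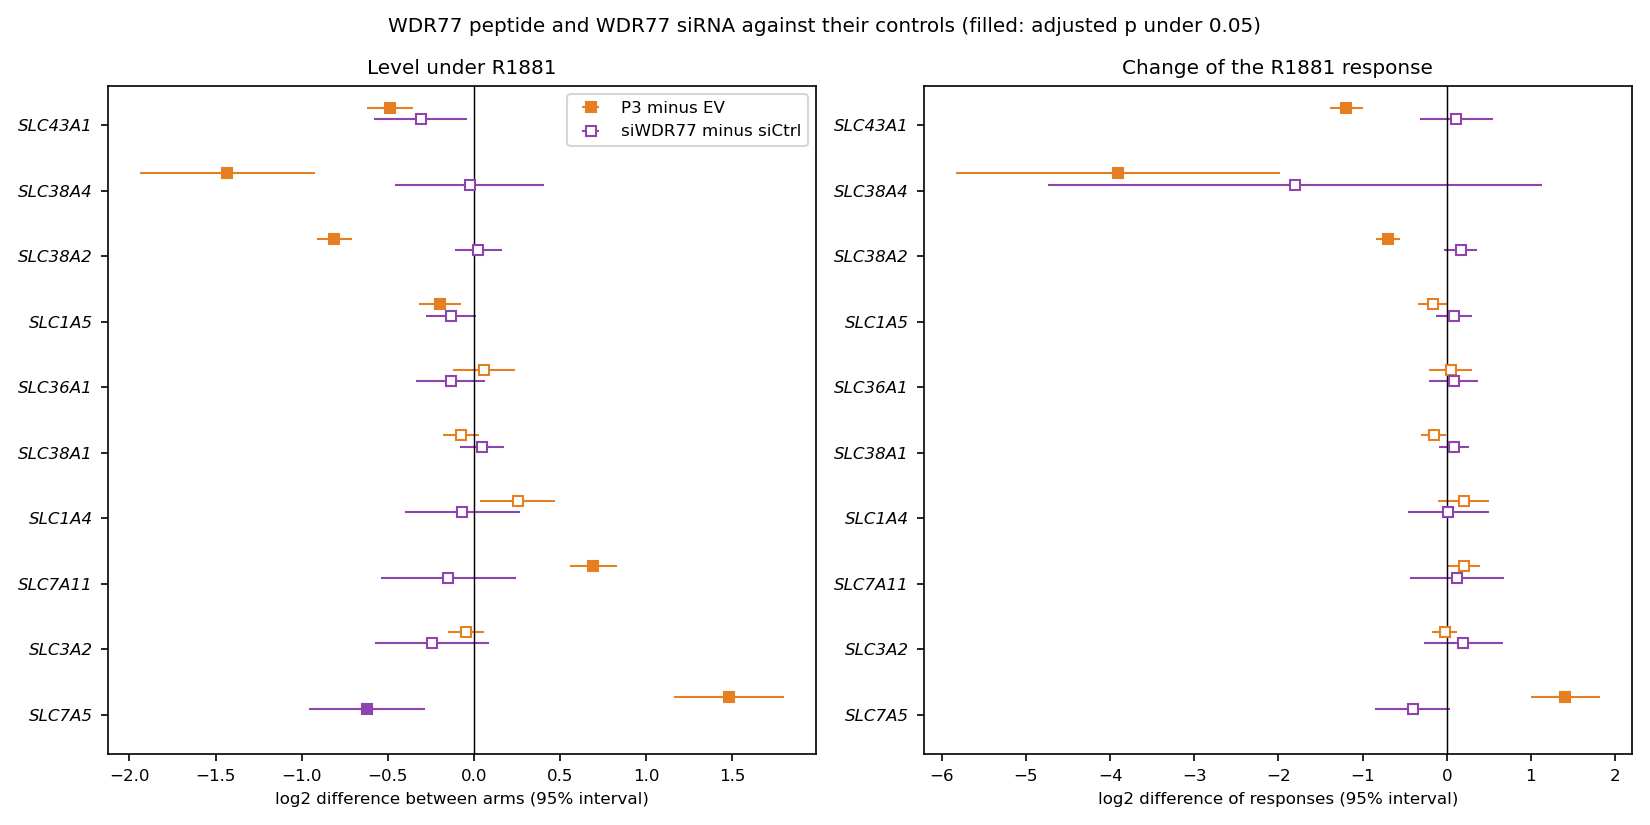
Differences between P3 and EV (orange) and between siWDR77 and siCtrl (purple), for the level under R1881 (left) and for the response to R1881 (right), on the log2 scale with 95% intervals. Filled symbols passed an adjusted p of 0.05. SLC7A5 lies at 1.48 for P3 and at -0.62 for siWDR77 in the left panel.

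The 2 control arms, siCtrl and EV, received the same hormone dose for the same time but differ in study and in what was transfected, which cannot be told apart. In a fit over all 24 libraries with 18999 genes, the siCtrl response minus the EV response was called higher for 7 of the 10 members and lower for none, where 10.7% and 6.04% of all genes were called (16.8% in all), 64.0% of the calls being higher, or 36.7% without scaling beyond library totals. The 7 were SLC1A5 (1.18 ± 0.100, adjusted p = 9.16e-11), SLC36A1 (0.91 ± 0.131), SLC43A1 (1.07 ± 0.159), SLC7A5 (1.14 ± 0.207), SLC38A1 (0.42 ± 0.0796), SLC7A11 (1.16 ± 0.197) and SLC1A4 (0.89 ± 0.188, adjusted p = 7.30e-04). For SLC7A5 a positive difference means a smaller fall. SLC38A2 did not pass (-0.18 ± 0.0844, adjusted p = 0.156), and neither did SLC38A4 (2.12 ± 1.55) nor SLC3A2 (0.12 ± 0.157). Without siCtrl_vehicle S35, SLC3A2 (0.28, adjusted p = 0.0244) and SLC38A2 (-0.26, adjusted p = 0.0346) were called as well, and without scaling beyond library totals SLC38A2 was called lower (-0.29, adjusted p = 0.0138). The median over the 10 members was 0.99, beside 0.02 for all genes tested.

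SLC38A1, SLC38A2 and SLC38A4 are neighbours, lying in this order within 649346 bases on the minus strand of chromosome 12 (46183063 to 46832408, GRCh38, GENCODE 29). All 3 rose with R1881 in EV, siWDR77 and siCtrl cells. The rise of SLC38A1 in EV cells was small (0.17) and is lost without scaling beyond library totals (0.004, adjusted p = 0.952). In P3 cells SLC38A1 was at 0.02 (adjusted p = 0.88), while SLC38A2 and SLC38A4 rose. Of the 2 other tested genes inside this span, the long noncoding RNAs RP11-96H19.1 and RP11-474P2.6, neither was called in P3, EV or siCtrl cells, and RP11-96H19.1 was lower with R1881 in siWDR77 cells (-0.57, adjusted p = 0.0332). Under R1881 RP11-474P2.6 was higher in P3 than in EV cells (1.09, adjusted p = 0.0077). Within 1000000 bases on either side 13 further genes were tested, of which 0 were called higher and 3 lower in P3 cells, 1 higher and 6 lower in EV cells, and 0 higher and 7 lower in both siWDR77 and siCtrl cells. Of all genes 13% were called higher and 7.96% lower in P3 cells, and 24.9% and 26.4% in EV cells. In siWDR77 cells it was 27.7% and 25.5%, and in siCtrl cells 25.7% and 25.4%. The nearest tested genes beyond SLC38A4, named here after their values were seen, had the largest falls of the 18 genes in all 4 arms. AMIGO2, a cell adhesion gene, fell with R1881 by 0.97 on the log2 scale in P3 cells (adjusted p = 0.0206), by 3.91 in EV cells (adjusted p = 2.16e-08), by 6.83 in siWDR77 cells (adjusted p = 1.06e-14) and by 6.01 in siCtrl cells (adjusted p = 1.38e-14). PCED1B, next to it, fell by 0.97, 3.48, 6.00 and 4.95 in the same arms (adjusted p = 0.0423, 5.44e-08, 5.84e-10 and 1.19e-09). Their starts lie 809.9 and 809.6 kb from that of SLC38A1, and that of SLC38A4 lies 562.4 kb from it. Under R1881 both were higher in P3 than in EV cells (AMIGO2 by 2.67, adjusted p = 5.16e-05, and PCED1B by 2.38, adjusted p = 2.83e-04), while SLC38A4 was lower.

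**Figure D4:**
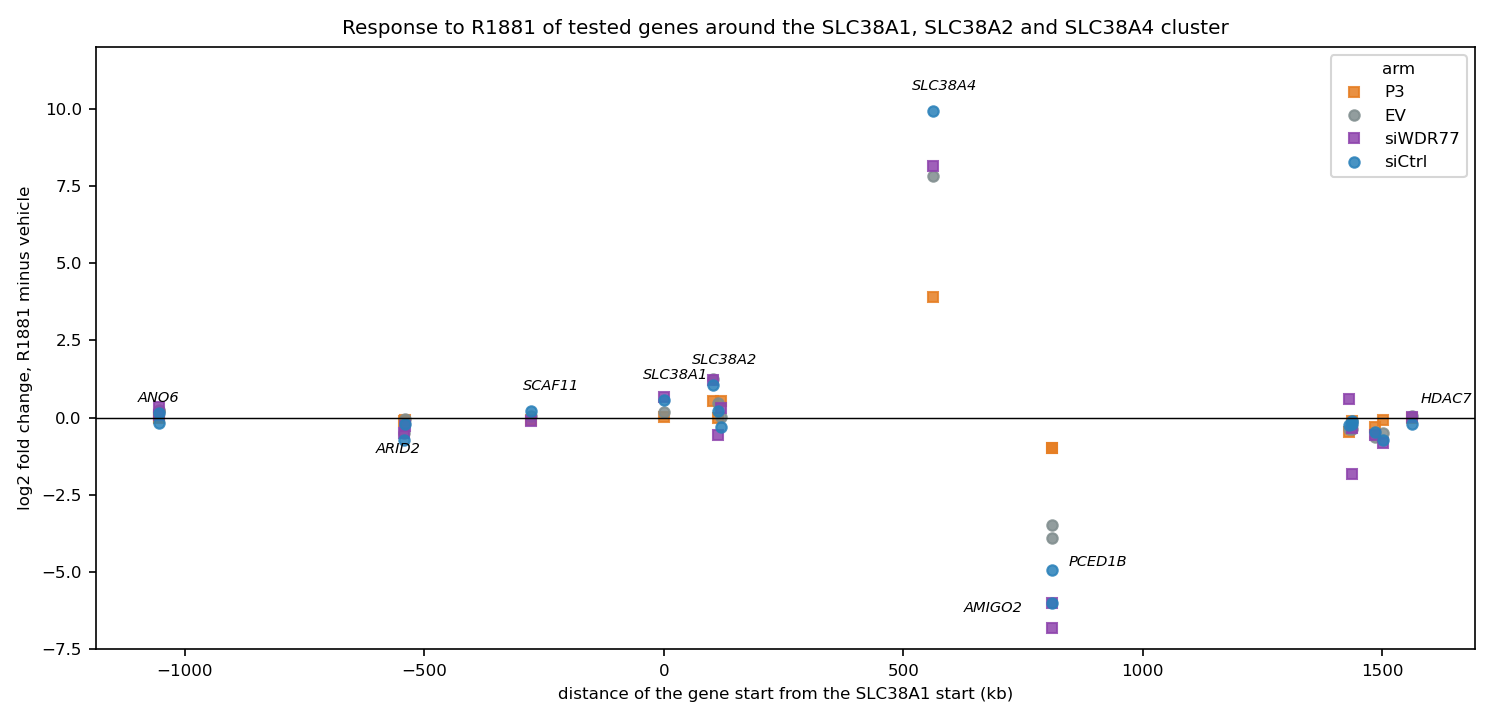
Log2 fold change of R1881 over vehicle for the 18 tested genes in and around the SLC38A1, SLC38A2 and SLC38A4 cluster, by distance of the gene start from the SLC38A1 start in kb. Orange squares are P3 cells, grey circles EV cells, purple squares siWDR77 cells and blue circles siCtrl cells. AMIGO2 and PCED1B share 1 position on the axis. SLC38A4 lies at the top and AMIGO2 and PCED1B at the bottom of the plot, AMIGO2 at -6.83 in siWDR77 and -6.01 in siCtrl cells and PCED1B at -6.00 and -4.95.

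How alike the genes ran across the 24 libraries was described by Pearson's r of log2 CPM. The libraries share hormone and arm, so r is a description only. SLC38A4 had an r of 0.94 with SLC38A2 and 0.924 with SLC43A1, and SLC1A5 an r of 0.949 with SLC38A1. SLC7A5 had an r of -0.872 with SLC38A2 and -0.361 with its heavy chain SLC3A2. Among all 18999 genes, those most like SLC38A4 were CCDC141 (0.992), the glucose transporter gene SLC2A3 (0.991) and ST6GALNAC1 (0.990), a sialyltransferase gene. Most like SLC38A2 were AMD1 (0.985), a polyamine synthesis gene, and the cholesterol synthesis gene LSS (0.982). Most like SLC43A1 were ZNF587B, FAM174B and PTPRJ (0.979 each), and most like SLC1A5 were CAMSAP1 (0.987), SMG5 (0.981) and MSTO1 (0.980). For SLC7A5 they were TUB (0.954), C10orf95-AS1 (0.950) and WDR90 (0.949), and for SLC38A1 they were CEBPG (0.963), a partner of ATF4, SPATA13 (0.959) and GNB4 (0.951). SLC36A1 was most like ARHGAP17 and LPXN (0.966 each) and AKAP17A (0.963), and SLC1A4 most like KIF22 (0.943), EWSR1 (0.919) and the glycyl-tRNA synthetase gene GARS1 (0.898). SLC3A2 had no r above 0.879 (BRI3, then SNX8 at 0.861), and SLC7A11 none above 0.827 (HSD11B2, then SMPD4BP at 0.804 and KIF22 at 0.803).

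Other genes of amino acid transport, sensing and use were counted in the control arms. Of the other cell-surface amino acid transporters 15 were tested in EV cells, and 1 was called higher and 8 lower (median log2 fold change -0.80). In siCtrl cells it was 3 and 10 of 16 (-0.66). The 1 higher in both was SLC7A8, the LAT2 light chain, which rose by 0.93 ± 0.0568 (adjusted p = 1.04e-17) in EV and 0.85 ± 0.0644 (3.62e-11) in siCtrl cells. SLC1A1, a glutamate and cysteine transporter, fell by 1.03 in EV and 1.32 in siCtrl cells on the log2 scale. SLC1A3 (-2.29) and SLC6A20 (-2.95) fell in EV cells at under 2 CPM. The cationic amino acid transporter SLC7A1 rose in siCtrl cells (0.81 ± 0.0667, adjusted p = 1.81e-10) and was at -0.02 (adjusted p = 0.761) in EV cells. Of 10 lysosomal and other internal transporters 6 were higher and 1 lower in EV, and 7 and 2 in siCtrl cells, with rises of SLC17A5 (0.65 and 0.57) and SLC66A1 (0.53 and 0.72), and falls of SLC38A9, a lysosomal arginine sensor (-0.76 and -1.65). Of 8 mitochondrial carriers 4 were higher and 1 lower in EV, and 5 and 0 in siCtrl cells, among them SLC25A13 (0.65 and 1.12), an aspartate and glutamate carrier.

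Of 32 genes of amino acid sensing by mTORC1, 14 were higher and 10 lower in EV cells, and 13 and 6 in siCtrl cells. MTOR, the kinase itself, was at 338 CPM in EV_R1881 against 110 CPM in EV_vehicle (log2 fold change 1.62 ± 0.0507, adjusted p = 1.12e-27), and at 395 CPM in siCtrl_R1881 against 101 CPM in siCtrl_vehicle (1.97 ± 0.0668). The leucine sensor family genes SESN1 (-1.71 in EV, -1.93 in siCtrl) and SESN3 (-1.73 and -2.19) fell, as did DEPTOR, an inhibitor of mTOR (-1.62 and -1.95). In P3 cells the same genes moved less, with response differences from EV of -0.75 for MTOR (adjusted p = 3.17e-11), 1.07 for SESN1 (5.40e-13), 1.17 for SESN3 (3.23e-09) and 1.06 for DEPTOR (4.28e-06). Of all genes 22.6% were called in that comparison. These genes were named for large changes in EV and siCtrl cells, and the same EV libraries enter the difference. The choice thus favours smaller changes in P3 cells, and the values are a description. Of 19 amino acid starvation response genes 8 were higher and 7 lower in EV cells, and 10 and 3 in siCtrl cells. VLDLR (1.78 and 1.79) and ATF3 (1.69 and 1.64) rose in EV and siCtrl cells, and the serine synthesis gene PHGDH fell by 1.05 in EV and by 0.26 in siCtrl cells. Of 13 genes of cystine use and glutathione synthesis 8 were higher and 1 lower in EV, and 9 and 0 in siCtrl cells, among them glutathione reductase GSR (0.97 and 1.25) and cystathionase CTH (0.88 and 1.14). Of 15 enzymes of glutamine, glutamate, proline and branched-chain amino acids 9 were higher and 5 lower in EV, and 10 and 1 in siCtrl cells. Glutamate dehydrogenase GLUD1 was at 520 CPM in EV_R1881 against 171 CPM in EV_vehicle (3.03-fold, adjusted p = 3.25e-26), and at 623 CPM in siCtrl_R1881 against 172 CPM in siCtrl_vehicle (3.62-fold). In these counts 24.9% of all genes were higher and 26.4% lower in EV cells, and 25.7% and 25.4% in siCtrl cells. The lists were chosen with earlier results of these data known, so the counts are a description.

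**Figure D5:**
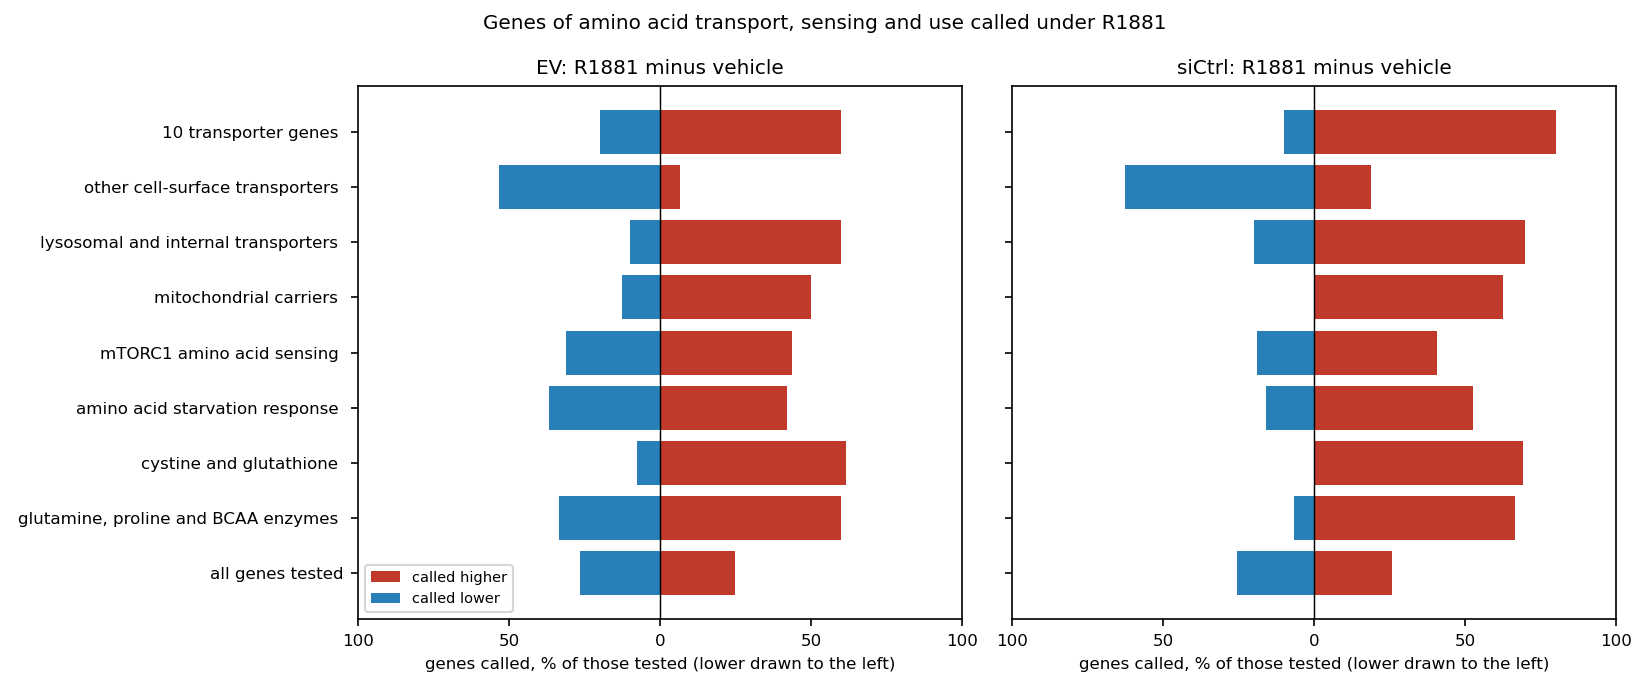
Share of genes called higher (red, right) and lower (blue, left) with R1881 among those tested in each group of amino acid genes, in EV cells (left panel) and siCtrl cells (right panel), in percent of the genes tested. The bottom bar is all genes tested. The 10 transporter genes show 6 higher and 2 lower in EV and 8 higher and 1 lower in siCtrl cells, and the other cell-surface transporters 1 higher and 8 lower and 3 higher and 10 lower.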

How the data were processed

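Poly(A) RNA of LNCaP cells was sequenced, and the authors deposited a table of raw read counts per gene. The submitters' processing notes name bcl2fastq 2.20, STAR 2.7.9a, Subread 1.6.4 (which holds featureCounts) and GRCh38.p7. The strand setting of the counting is not given in the sources used here. The members and gene lists were chosen with earlier results of these data known.

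From the counts, each study was fitted with edgeR 4.0.16 in R 4.3.3 (TMM scaling, filterByExpr by group, robust quasi-likelihood F test), with Benjamini-Hochberg adjustment over all genes, and the control arms in a fit of all 24 libraries. CPM values are counts divided by TMM-scaled library sizes (counts per 1000000), computed within a study. Per-kb values divide by the merged length of all exons of a gene from GENCODE 29. The procedure was tested on simulated data. The S numbers were checked as pairs. A run here is a stretch of S numbers (run 1 from S1 to S10, run 2 from S15 to S24, run 3 from S29 to S38) that holds 1 library of each group. The labels do not say what these stretches stand for. Deviations of same-run libraries had a median r of 0.014 in study 1 and 0.027 in study 2. For libraries of different runs it was -0.014 and -0.018. Same-run r ranged from -0.026 to 0.118 in study 1 and from -0.062 to 0.126 in study 2. Between P3_vehicle and P3_R1881 it was 0.114, 0.118 and 0.091. The main fits leave the run out. P3_R1881 columns, whose names mention siRNA, were assigned through their S numbers. Alternatives were RLE size factors, no scaling, no filter, DESeq2 1.42.0, other sample sets, a run block and leaving out each library. Counts without SLC38A4, and its count ratio in P3 cells without P3_vehicle S33, were added after seeing the data. Besides the 10 genes, the text names SLC38 neighbours, up to 3 genes most like each (a few genes are not reported here), and up to 3 genes per list and direction with the largest called change in a control arm, at 1 CPM or more and with libraries that do not overlap.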

Additional observations from a re-analysis of the deposited data

Results flagged for a closer look

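The response to R1881 differed between P3 and EV cells, by the edgeR test of the difference itself, for 4 of the 10 genes. Of all genes 22.6% were called there. SLC38A4 is 1 of the 4, and its low level without hormone was part of the choice of genes. Of the 9 without it, 1 was called higher and 2 lower. The P3 response minus the EV response was 1.41 for SLC7A5, -0.70 for SLC38A2, -3.91 for SLC38A4 and -1.19 for SLC43A1 on the log2 scale (adjusted p = 6.17e-07, 1.49e-10, 0.00196 and 1.03e-12). The SLC38A4 value rests on P3_vehicle S33, without which the adjusted p was 0.194.

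The response also differed between the siCtrl and the EV arm for 7 genes, where 16.8% of all genes were called. The siCtrl response minus the EV response was 1.14 for SLC7A5, 0.89 for SLC1A4, 1.18 for SLC1A5, 1.16 for SLC7A11, 0.42 for SLC38A1, 1.07 for SLC43A1 and 0.91 for SLC36A1, with adjusted p between 9.16e-11 and 7.30e-04. The study and the kind of transfection cannot be told apart in these differences.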

How the results depend on the processing

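No called value reversed its direction under the alternatives run. For the difference between the siWDR77 and siCtrl responses, 0 genes were called by edgeR, 1 without scaling, 112 with no filter on low counts, 16 with the run as a replicate block, 56 by DESeq2 and 40 with all 24 libraries in 1 fit. Without hormone, siWDR77 against siCtrl gave 273 genes, and 422 with no filter, 466 by DESeq2, 491 with all 24 libraries and 127 with the 6 libraries compared. Of the 10 members 0 were called there, and 1 with no filter, by DESeq2 and with all 24 libraries. With R1881, 1 member was called, 2 with no filter and 3 with the 6 libraries compared. Leaving out each library gave 91 to 478 genes for siWDR77 against siCtrl without hormone and 587 to 1097 with it (1291 with all libraries), with 0 to 1 members each, 1344 to 3124 for P3 against EV without hormone (2809 with all, 1344 without P3_vehicle S5), and 0 to 43 for the difference of the siWDR77 and siCtrl responses (43 without siCtrl_vehicle S35). Whether the S numbers pair the samples is not settled. With the run as a replicate block, 3717 genes were called for P3 against EV without hormone (2809 without the block). For R1881 in P3 cells it was 4291 (3726). The block gave 9 members for EV (8 without it) and 9 for siWDR77 (10). For the P3 response minus the EV response it gave 5 (4), the fifth being SLC7A11 (0.20, adjusted p = 0.0376). Depth limits SLC38A4 without hormone, at 0 to 14 counts per group.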
